A study of Mus musculus with 6 samples.

Results

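Integrins are receptors that hold a cell to the matrix around it or to other cells. The genes described here are 10 integrin subunits, Itga2, Itga3, Itga5, Itga6, Itga9, Itgav, Itgb1, Itgb3, Itgb5 and Itgb7, in germline stem (GS) cells, which are mouse spermatogonia kept in culture. They were chosen by gene name from a count table of 32285 genes, 1 row for each name, and all 10 held enough counts to be tested among 15104 genes. RNA-seq was made from 3 Space and 3 Ground samples of GS cells. Both groups were derived from DBA/2 mice of the genotype DBA/Tg14(act-EGFP-OsbY01), an EGFP transgene taken from a C57BL6 line and bred into DBA/2, from pups 2 to 3 days old, and were frozen for 6 months, the Space cells aboard the International Space Station and the Ground cells on Earth. RNA was taken on the day after thawing, with no passage. The transgene is named for an actin promoter, and GS cells grow on mouse embryonic fibroblasts (MEFs) with GDNF and FGF2, so a library can hold feeder RNA. The study used 3 lines of each group, but no source says which libraries share a line or culture, so p-values measure only the spread between these libraries. The sample titles and the treatment labels name opposite groups in all 6 libraries. Titles are followed here, as the column names of the table do, and every direction given below would turn under the other reading.

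An integrin is a pair of an α and a β chain, and each pair has its own ligands. The pairs α3β1 and α6β1 bind laminin of the basement membrane, α5β1 and the αv pairs bind the RGD motif of fibronectin, vitronectin and other proteins, α2β1 binds collagen, and β7 joins α4 or αE in lymphocytes. Inside the cell, talin and kindlin bind the β tail and tie the receptor to actin and to focal adhesion kinase. In the testis, α6 and β1 are long-used surface markers for enriching spermatogonial stem cells, and β1 takes part in their homing to the basement membrane after transplantation.

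The libraries held 19015985 to 24110916 counts, and 3 counts came to 0.120 to 0.160 CPM, the normalised read count of a gene after TMM scaling of the library size. All 24 germ cell markers, Ddx4, Gfra1 and Zbtb16 among them, were detected at 1 CPM or more, with a summed level of 5921 to 6071 CPM in Ground and 6009 to 6062 CPM in Space libraries. No pair of libraries matched within sampling noise. The libraries closest to each other came from different groups. The median chi-square of a gene over its expected value was 1.55 for Ground-1 with Space-3, 2.55 for Ground-3 with Space-1 and 2.63 for Ground-2 with Space-2, against 4.997 to 10.4 for the other pairs. Mitochondrially encoded genes took 3.09%, 11.5% and 5.69% of the counts in the Ground and 2.51%, 7.12% and 2.81% in the Space libraries. With these genes left out, 0 of the 10 subunits passed the test, as with them, and the log2 fold change of Itga6 was 0.0485 in place of 0.0460.

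Measured as CPM per kilobase of merged exons, Itgb1 was the subunit with the highest level, at 75.8 over the 6 libraries (range 70.5 to 82.8). Itgb5 at 17.7, Itga3 at 17.4 and Itga6 at 16.9 formed the next tier, and their ranges overlapped. Itga5 followed at 4.25, Itgb3 at 3.31, Itgav at 2.99 and Itgb7 at 2.24, each overlapping the range of its neighbour in this order. Compared within each library on this scale, Itga5 exceeded Itgb3 in 6 libraries, Itgb3 exceeded Itgav in 6 and Itgav exceeded Itgb7 in 5. Itga9 at 1.24 and Itga2 at 0.063 stood below, with no overlap with the subunit above them. Several places in this order rest on the length used. Per kilobase of the longest annotated transcript, Itga6 stood at 35.4, Itga3 at 20.4 and Itgb5 at 19.1, and Itga3 was 0.424 to 0.807 times Itga6 in the 6 libraries. Itgav, at 4.56 on that scale, stood above Itgb3 at 3.37. The transcript mixture was not measured, so neither length is exact.

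**Figure D1:**
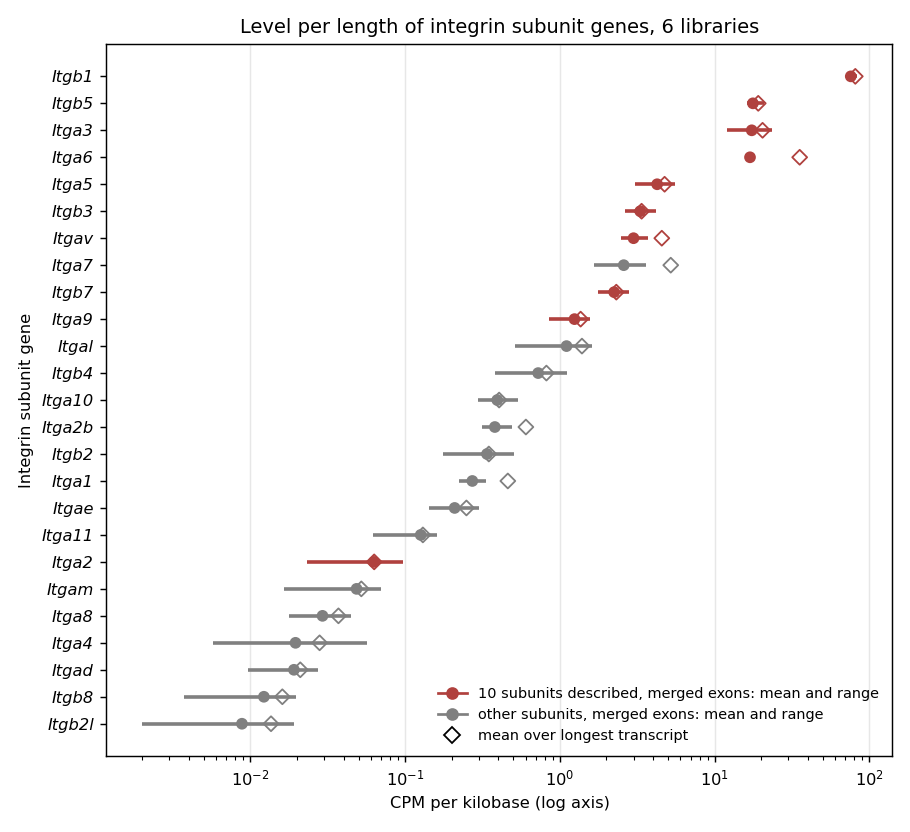
Level of each integrin subunit gene in CPM per kilobase of merged exons (log axis), as the mean over 6 libraries with the range from the lowest to the highest library. The 10 subunits described run from 0.063 for Itga2 to 75.8 for Itgb1, and Itgb6 and Itgax, with no counts, are not drawn.

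Itga6 (ENSMUSG00000027111, chr2:71745616-71858416 on the plus strand of GRCm38) encodes the α chain of the laminin receptor α6β1. Its normalised read counts were 148, 159 and 143 CPM in Ground-1, Ground-2 and Ground-3 and 152, 164 and 149 CPM in Space-1, Space-2 and Space-3. The groups overlapped, and the highest library was 1.14 times the lowest, the narrowest range among the 10 subunits. The means were 150.3 ± 8.13 CPM in Ground and 155 ± 7.45 CPM in Space (SD, n = 3 each). The other laminin-binding α chain, Itga3 (ENSMUSG00000001507, chr11:95044474-95076801, minus strand), was at 135, 94.7 and 68.5 CPM in the Ground and 73.9, 90.2 and 133 CPM in the Space libraries. Ground-1 and Space-3 were highest and Ground-3 and Space-1 lowest, and the spread within either group was far larger than the gap between the means of 99.4 ± 33.5 and 98.9 ± 30.3 CPM. Because Itga6 was level and Itga3 was not, the ratio of Itga3 to Itga6 per kilobase of merged exons ran from 0.756 in Ground-3 and 0.766 in Space-1 to 1.40 in Space-3 and 1.44 in Ground-1.

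Itgb1 (ENSMUSG00000025809, chr8:128685654-128733200, plus strand) encodes the β1 chain, the partner of both laminin-binding α chains. It was at 333, 299.6 and 297 CPM in the Ground and 301, 288 and 338 CPM in the Space libraries. Its range was almost as narrow as that of Itga6, at 1.17-fold, with Ground-1 and Space-3 again highest. The means were 309.8 ± 20.2 CPM in Ground and 309 ± 26.0 CPM in Space (SD, n = 3 each).

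**Figure D2:**
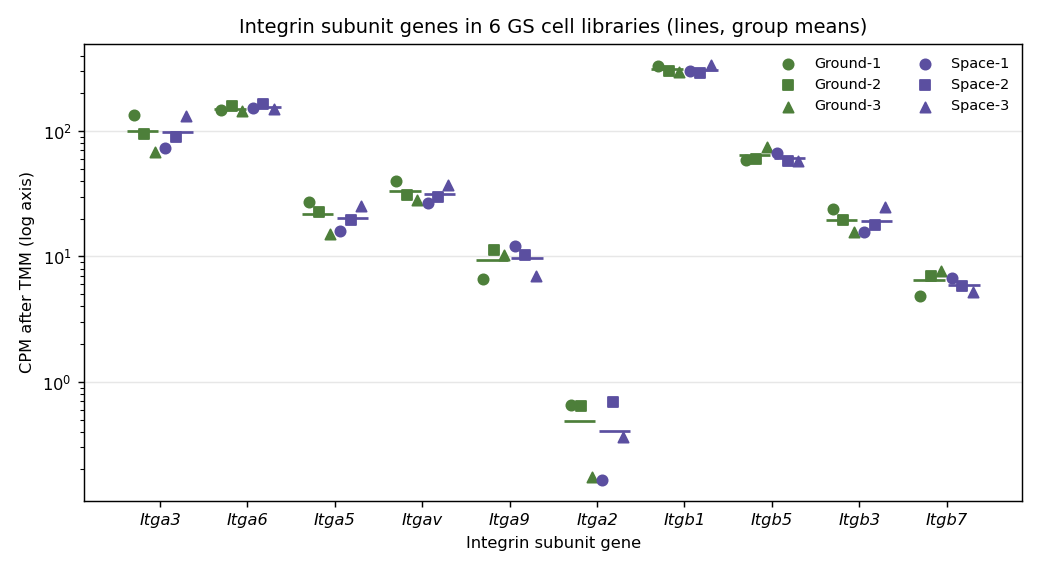
Normalised read count of the 10 integrin subunits in each library (CPM, log axis), with Ground and Space libraries in separate colours and bars for the group means. In every subunit the points of the groups overlap, and the spread is narrowest for Itga6 (1.14-fold) and Itgb1 (1.17-fold) and widest for Itga2 (4.21-fold, from 58 counts in all).

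The subunits of RGD-binding receptors were lower per kilobase than Itgb1, and all 4 were detected in every library. Itga5 (ENSMUSG00000000555, chr15:103344286-103366763, minus strand), the α chain of the fibronectin receptor, was at 27.2, 22.7 and 15.1 CPM in the Ground and 15.9, 19.6 and 25.4 CPM in the Space libraries. Itgav (ENSMUSG00000027087, chr2:83724397-83806916, plus strand), the α chain shared by vitronectin receptors, was at 39.9, 31.0 and 28.1 CPM in the Ground and 26.8, 29.8 and 37.1 CPM in the Space libraries. In both genes Ground-1 and Space-3 were the 2 highest libraries and the groups overlapped. Of the exonic bases of Itgav, 634 overlap the antisense gene Gm13684. Whether reads were counted by strand is not given in the sources used here, so reads of both genes may be mixed there.

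The β chains that join αv split in direction. Itgb3 (ENSMUSG00000020689, chr11:104608000-104670476, plus strand) was at 23.8, 19.5 and 15.7 CPM in the Ground and 15.6, 17.8 and 24.6 CPM in the Space libraries, with Ground-1 and Space-3 highest as for Itga5 and Itgav. Itgb5 (ENSMUSG00000022817, chr16:33829665-33949338, plus strand) was at 59.1, 60.1 and 74.1 CPM in the Ground and 67.3, 58.1 and 57.9 CPM in the Space libraries, with Ground-3 and Space-1 highest. The ratio of Itgb5 to Itgb3 per kilobase was thus 7.84 in Ground-3 and 7.18 in Space-1 but 4.12 in Ground-1 and 3.91 in Space-3. Fibroblasts also express these 4 genes. In bulk RNA, fewer cells of a type and less RNA per cell cannot be told apart, and nor can the cell type from which these counts came. The summed level of 25 fibroblast markers, none of them at 0, was 795, 783 and 758 CPM in the Ground and 542, 777 and 727 CPM in the Space libraries. It was lowest in Space-1, where Itgav and Itgb3 were lowest too, whereas Itga5 was lowest in Ground-3. Itgb5 was higher in Space-1 than in any other library but Ground-3. The part of fibroblasts in these levels was not tested.

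The remaining members have partners or ligands of their own. Itga9 (ENSMUSG00000039115, chr9:118606690-118901003, plus strand), a β1 partner that binds tenascin and osteopontin, was at 6.59, 11.3 and 10.3 CPM in the Ground and 12.02, 10.2 and 6.96 CPM in the Space libraries. Here Ground-1 and Space-3 were the 2 lowest. Itgb7 (ENSMUSG00000001281, chr15:102215995-102231944, minus strand) was at 4.86, 6.92 and 7.72 CPM in the Ground and 6.67, 5.86 and 5.24 CPM in the Space libraries, with the same 2 libraries lowest. Its known partners were scarcely counted. Itga4, which encodes α4, had 6, 4 and 18 counts in the Ground and 5, 2 and 2 counts in the Space libraries and failed the filter, while Itgae averaged 0.957 CPM. Per kilobase, Itgb7 exceeded the sum of both by 7.09 to 13.9 times. Of 12 macrophage and blood markers, 10, among them Ptprc, Csf1r and Adgre1, were under 1 CPM, 2 had no counts in any library, and the summed level was 15.3 to 30.6 CPM in Ground and 18.98 to 29.996 CPM in Space.

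Itga2 (ENSMUSG00000015533, chr13:114833081-114932100, minus strand), the collagen-binding α2 chain, had 16, 12 and 4 counts in the Ground and 4, 13 and 9 counts in the Space libraries. These are 0.659, 0.639 and 0.175 CPM in Ground and 0.165, 0.693 and 0.360 CPM in Space. With so few counts the 4.21-fold range between libraries carries a large counting error.

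As shares of the 12 α genes whose products pair with β1, summed per kilobase, Itga6 made up 30.2% to 42.8% and Itga3 31.9% to 43.4% of the total. Itga6 had the larger share in Ground-2, Ground-3, Space-1 and Space-2 and Itga3 in Ground-1 and Space-3, whereas by the longest transcript Itga6 exceeded Itga3 in all 6. Itga5 followed with 8.12% to 10.1%, Itgav with 6.11% to 6.96%, Itga7 with 4.204% to 6.63% and Itga9 with 1.57% to 3.96%. Among the 8 β genes, Itgb1 made up 72.9% to 77.7%, Itgb5 15.3% to 20.9%, Itgb3 2.67% to 3.91% and Itgb7 1.67% to 2.79%. The level of Itgb1 per kilobase of merged exons was 1.497 to 1.93 times the sum of its 12 α partners. This ratio and the shares rest on the length used. By the longest transcript the mean level of Itga6 was 35.4 in place of 16.9, and that of Itgb1 was 81.1 in place of 75.8. On that scale the excess of Itgb1 is smaller and the share of Itga6 larger. These shares describe transcripts, and the amounts of receptor on the cell surface were not measured by this assay.

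**Figure D3:**
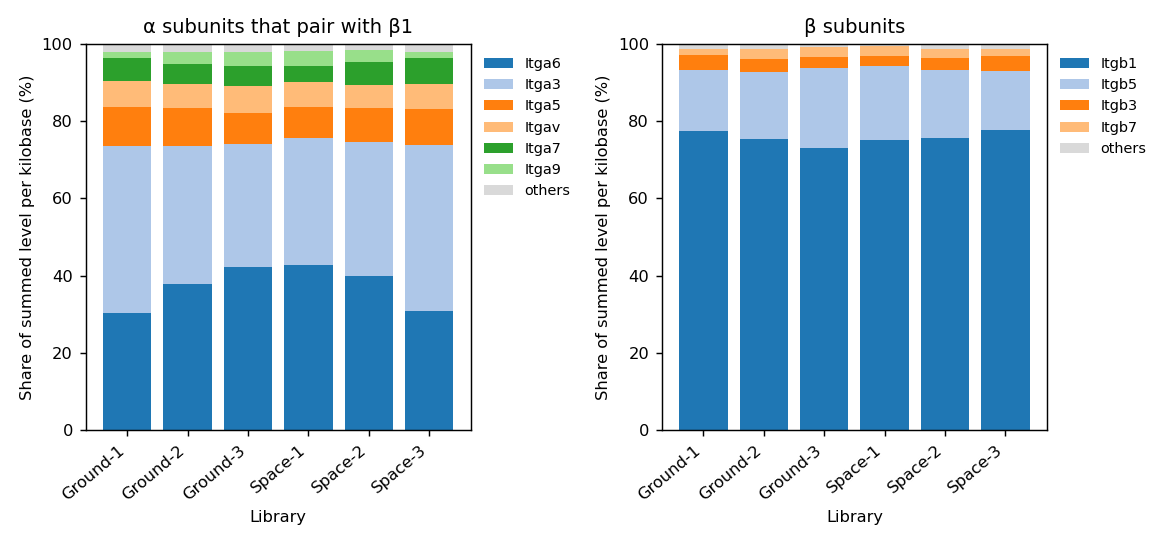
Shares of the α genes that pair with β1 and of the β genes, as percent of their summed CPM per kilobase in each of the 6 libraries. Itgb1 holds 72.9% to 77.7% of the β sum in every library, and by merged exons, though not by the longest transcript, Itga6 and Itga3 change places between libraries of the same group.

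The main comparison asked whether storage in space changed the expression of these subunits. No subunit passed the test. By edgeR's quasi-likelihood test with Benjamini-Hochberg adjustment over 15104 genes, 0 of 10 were past an adjusted p of 0.05, against 0% of all genes tested, and each of the 10 had an adjusted p of 0.9999. At an unadjusted p under 0.05 there were also 0 of 10, against 0.609% of all genes, and 0 by DESeq2 and by limma-voom. The smallest unadjusted p of a member was 0.493 by the edgeR test, for Itga6. The groups did not separate in any of the 10, against 3.59% of all genes whose groups did not overlap. The log2 fold change, Space over Ground, was above 0 for 2 and below 0 for 8, with a median of -0.052 beside -0.0020 over all genes tested. This median turned to 0.04 without Ground-1 and 0.04 without Space-1, and it was -0.15 without Space-3, -0.10 without Ground-3 and -0.02 without Space-2.

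The intervals show what size of difference these libraries could still hide when they are treated as unrelated to each other. For Itga6 the log2 fold change was 0.05 (SE 0.064), and its 95% interval ran from 0.931-fold to 1.14-fold. For Itgb1 it was -0.004 (SE 0.078), with an interval from 0.879-fold to 1.13-fold. The bulk RNA level of Itga6 and Itgb1, from whatever cell type, was thus held within narrow bounds. Itgb5 was similar, at -0.08 (SE 0.107), from 0.798-fold to 1.13-fold. Wider intervals belonged to the subunits that differed between libraries of a group. Itga3 had -0.008 (SE 0.275), from 0.639-fold to 1.55-fold, and Itga5 had -0.09 (SE 0.240), from 0.636-fold to 1.38-fold. Itgav had -0.08 (SE 0.164), from 0.727-fold to 1.23-fold, and Itgb3 had -0.03 (SE 0.207), from 0.704-fold to 1.37-fold. Itga9 had 0.05 (SE 0.261), from 0.681-fold to 1.58-fold, and Itgb7 had -0.13 (SE 0.211), from 0.651-fold to 1.28-fold. For Itga2 the estimate was -0.31 (SE 0.645), and with an interval from 0.286-fold to 2.27-fold only a large difference was detectable at this depth. A p that misses the threshold does not show that the groups were alike.

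**Figure D4:**
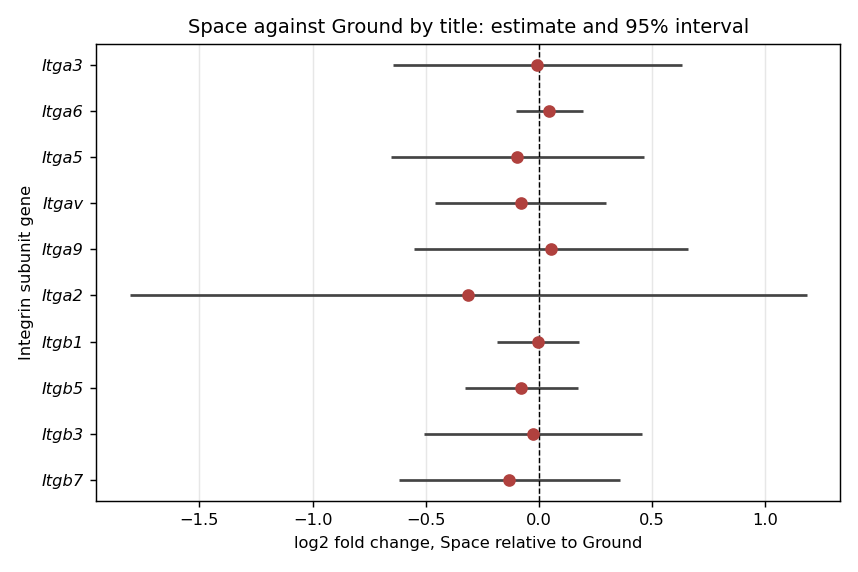
Log2 fold change, Space over Ground, of the 10 integrin subunits with 95% intervals from the edgeR fit. Every interval crosses 0, and it is narrowest for Itga6 (SE 0.064) and widest for Itga2 (SE 0.645).

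Differences between libraries of the same group were larger than the difference between groups. Ground-1 exceeded Ground-3 by 1.97-fold in Itga3, 1.80-fold in Itga5, 1.52-fold in Itgb3 and 1.42-fold in Itgav, and Space-3 exceeded Space-1 by 1.79-fold, 1.60-fold, 1.58-fold and 1.39-fold in the same genes. Itgb1 followed with 1.12-fold in both pairs. The order was turned in Itga9, where Ground-1 was 0.639 times Ground-3 and Space-3 was 0.579 times Space-1, and in Itgb7, at 0.630 and 0.785 times. Itgb5 also ran this way, at 0.797 and 0.860 times. Itga6 stood apart, at 1.04 and 0.980 times. Ground-1 and Space-3 thus held the 2 highest values in 5 of 10 subunits and the 2 lowest in 2, and the same was true of 3021 (20.0%) and 2982 (19.7%) of all 15104 genes tested. The coefficient of variation over the 6 libraries had a median of 18.8% among the members, from 4.89% for Itga6 to 54.9% for Itga2, beside a median of 10.6% and quartiles of 5.93% and 21.2% over all genes tested. Among the 24 germ cell markers the same 2 libraries were highest in 6 and lowest in 8. Their score, given as their mean log2 CPM, was 7.23 in Ground-1 and 7.24 in Space-3 against 7.08 to 7.19 in the other libraries. Scores of other cell types, given as the mean log2 CPM of their tested markers, were also highest in Ground-1 and Space-3. They were 1.37 and 1.48 there against -0.49 to 0.52 in the other libraries for 5 macrophage and blood markers, 2.15 and 2.30 against 1.49 to 1.99 for 7 endothelial markers, and 1.88 and 1.91 against 1.25 to 1.55 for 6 Sertoli and Leydig markers. Fibroblast markers did not follow this order, at 3.73 in Ground-1 and 3.46 in Space-3 against 2.85 to 3.71. By summed CPM, the 10 endothelial markers were instead lowest in Ground-1 and Space-3, at 82.3 and 85.3 against 90.0 to 100.4. Of the 7 tested, 3 had these 2 libraries highest and 1 had them lowest. The part of these cell types in the pattern was not tested. No source ties these libraries to a shared line, culture or batch, and the part of such a factor was not tested.

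**Figure D5:**
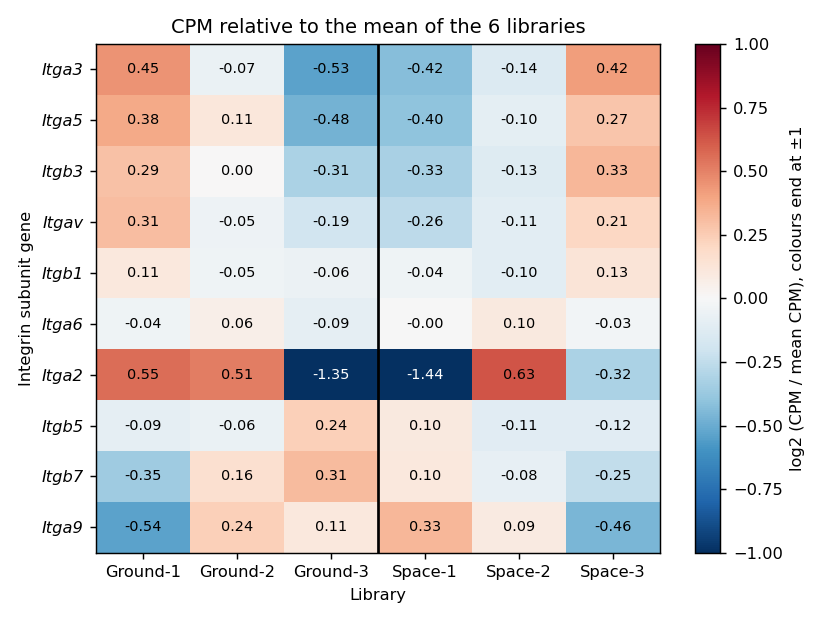
Log2 level of each subunit in each library relative to its mean over the 6 libraries, as a colour scale. Itga3, Itga5, Itgav, Itgb1 and Itgb3 are highest in Ground-1 and Space-3, Itga9 and Itgb7 are lowest there, and Itga6 is level.

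The promoters of 4 members are shown so that their base composition can be compared. Itga5, Itgav and Itgb1 were highest in Ground-1 and Space-3, and Itgb5 was not. Each sequence is the 250 bases before the start site of RefSeq (GRCm38.p6), 5′ to 3′ on the strand of the gene. Capitals mark GC boxes, GGGCGG on either strand. Windows were at hand for 8 of the 10 subunits, without Itga6 and Itgb3.
Itga5 (chr15:103366792-103367041, minus strand): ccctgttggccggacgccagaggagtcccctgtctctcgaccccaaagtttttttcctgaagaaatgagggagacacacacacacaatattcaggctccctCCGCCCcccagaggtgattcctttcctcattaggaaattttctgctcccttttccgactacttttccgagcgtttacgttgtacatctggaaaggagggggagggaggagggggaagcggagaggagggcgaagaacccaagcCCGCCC
Itgav (chr2:83724147-83724396, plus strand): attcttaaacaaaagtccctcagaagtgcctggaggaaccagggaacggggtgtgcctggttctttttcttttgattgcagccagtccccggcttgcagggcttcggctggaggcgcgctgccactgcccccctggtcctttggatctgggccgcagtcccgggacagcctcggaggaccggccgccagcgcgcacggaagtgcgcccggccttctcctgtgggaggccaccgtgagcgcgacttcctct
Itgb1 (chr8:128685404-128685653, plus strand): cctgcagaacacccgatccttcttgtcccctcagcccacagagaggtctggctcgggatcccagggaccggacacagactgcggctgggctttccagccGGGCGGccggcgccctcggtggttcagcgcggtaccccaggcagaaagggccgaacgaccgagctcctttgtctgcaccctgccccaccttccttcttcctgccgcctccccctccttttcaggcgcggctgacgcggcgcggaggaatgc
Itgb5 (chr16:33829415-33829664, plus strand): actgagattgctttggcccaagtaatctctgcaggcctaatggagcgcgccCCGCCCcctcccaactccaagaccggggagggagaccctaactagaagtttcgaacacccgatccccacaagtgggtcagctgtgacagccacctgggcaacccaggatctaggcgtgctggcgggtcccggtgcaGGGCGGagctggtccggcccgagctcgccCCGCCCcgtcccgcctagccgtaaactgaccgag
The window of Itga5 held 2 GC boxes, that of Itgb1 1, that of Itgb5 3 and that of Itgav none, and 32.7% of 32851 windows of the same length held at least 1. Of the printed subunits highest in Ground-1 and Space-3, Itga5 and Itgb1 thus had GC boxes and Itgav had none. Itgb5, not highest there, had them. Itga9 and Itgb7, for which these 2 libraries were lowest, had none. A link between GC boxes and the order of the libraries was not tested. The first of the windows of Itga3 held 3 GC boxes and an ETS core (CCGGAA, in 12% of all windows). The windows of Itga2, Itga9, Itgav and Itgb7 held no match to any motif searched. No window of these subunits held a TATA box (TATAAA, in 12.4% of all windows) or an AP-1 site (TGANTCA, in 6.75%). A CCAAT box (CCAAT, in 33.8%) was found only in a second, downstream window of Itga3. The window of Itga9 (chr9:118711442-118711691) lies inside the gene and not at its annotated 5′ end. All motifs were searched on both strands, and none of them is contained in another. A match is a match of letters and not a site of binding.

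The rest of the integrin family was mostly low. Of the other 17 subunit genes, 9 passed the filter, 10 averaged under 1 CPM, and Itgb6 and Itgax had no counts in any library. Itga7, a further laminin-binding β1 partner, had the highest level per kilobase among them, at 26.4, 19.3 and 15.6 CPM in the Ground and 13.4, 21.8 and 29.0 CPM in the Space libraries, again highest in Ground-1 and Space-3. Itgb4, the only other partner of α6, was at 6.67, 4.79 and 2.85 CPM in the Ground and 2.68, 5.65 and 7.84 CPM in the Space libraries, so Itga6 exceeded it per kilobase by 14.8 to 44.3 times. The 2 highest libraries were the same in Itgal, which encodes the αL chain of a leukocyte integrin, at 8.97, 8.52 and 3.38 CPM in the Ground and 3.75, 8.37 and 10.5 CPM in the Space libraries. Its partner Itgb2 averaged 1.03 CPM, and per kilobase Itgal exceeded it by 1.99 to 5.09 times. Itga1 averaged 5.05 CPM, Itga2b 2.07 CPM and Itga10 2.04 CPM. Itga1 and Itga10 share exonic bases with other genes on the same strand and Itgb4 with an antisense gene, so their counts are less certain. None of the 9 tested passed the edgeR test (5 higher and 4 lower in Space, median log2 fold change 0.002), and the smallest unadjusted p of that model was 0.240, for Itga2b at -0.30 (SE 0.232).

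Ligands of the laminin receptors were expressed in the same cultures. Of 17 laminin and basement membrane genes, 15 were tested and 0 passed, with a median log2 fold change of -0.01. Nid2, which encodes nidogen 2, a linker of laminin and collagen IV, had the highest level per kilobase at 100.2, followed by Nid1 at 27.6 and the laminin chain Lamb1 at 19.9. Nid2 was at 619, 487 and 447 CPM in the Ground and 446, 494 and 616 CPM in the Space libraries, highest in Ground-1 and Space-3 as Itga3 was. Lamb1 was at 190, 181 and 221 CPM in the Ground and 221, 186 and 185 CPM in the Space libraries, highest in Ground-3 and Space-1 as Itgb5 was. Ground-1 and Space-3 held the 2 highest values in 4 of the 15 tested genes and the 2 lowest in 1, beside 20.0% and 19.7% of all genes tested. Whether ligands and subunits varied together was not tested. The smallest unadjusted p of the edgeR test in this list was 0.0254, for the collagen IV chain Col4a1, at 25.7 ± 1.17 CPM in Ground and 20.1 ± 3.19 CPM in Space with a log2 fold change of -0.35 (SE 0.128). In the other direction it was Lamb2 at 0.10 (SE 0.077). Only Col4a1 had an unadjusted p under 0.05 (0.609% of all genes) and groups that did not overlap (3.59% of all genes). Its adjusted p was 0.9999 by the same test. Without Space-1, where it was lowest at 16.6 CPM, its log2 fold change was -0.23. Without Ground-2, Ground-3 or Space-1, 0 genes of the list had an unadjusted p under 0.05 by edgeR.

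Among 20 RGD-containing and other matrix or cell surface ligands, 17 were tested and 0 passed, with 15 lower and 2 higher estimates in Space, beside 7743 lower and 7361 higher over all genes, and a median log2 fold change of -0.25. Spp1, or osteopontin, had the highest level per kilobase at 48.3, followed by fibronectin, Fn1, at 36.9 and Mfge8, a ligand of the αv integrins, at 24.4. Ccn1, Ccn2, Tnc and Thbs1, all lower in Space, were the 4 genes with an unadjusted p under 0.05 (0.609% of all genes), and the same 4 had groups that did not overlap (3.59% of all genes). Ccn1, a matrix-associated ligand of αv integrins, was at 7.29, 5.64 and 7.10 CPM in the Ground and 3.38, 4.26 and 4.84 CPM in the Space libraries, with a log2 fold change of -0.68 (SE 0.199) and an unadjusted p of 0.00917 by edgeR. The adjusted p of all 4 was 0.9999 by the same model. The smallest p for a higher estimate belonged to Ltbp3, at 0.06 (SE 0.196). Cdh1, a ligand of αEβ7, was at 8.87 ± 1.86 CPM in Ground and 8.06 ± 1.52 CPM in Space, with a log2 fold change of -0.14 (SE 0.204). Fibroblasts are a known source of many of these ligands, and the fibroblast markers moved with the list. Their mean log2 CPM was 3.71 ± 0.016 in Ground and 3.32 ± 0.415 in Space (exact permutation p = 0.1, the smallest possible with 3 against 3, adjusted p = 0.6 over 6 values), and 24 of 25 had lower estimates in Space. Without Space-1 the difference in this score, Space minus Ground, was -0.16 in place of -0.39. Their part in the ligand result was not tested. Without Space-1, the library with the lowest fibroblast sum, 1 ligand had an unadjusted p under 0.05 and the median was -0.08, and without Ground-3 there was 1 as well, with a median of -0.30.

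The intracellular partners of integrins were detected in the same libraries. Of 30 adhesion complex genes 28 were tested, 0 passed at either level of p, and the median log2 fold change was -0.007. The actin crosslinker Actn4 was the highest per kilobase at 55.5, followed by the small GTPase Rap1b at 47.3 and the α5-binding protein Nisch at 34.9. A few that act near the β tail are named after their values were seen. The kindlin gene Fermt2 was at 97.6, 91.8 and 88.5 CPM in the Ground and 90.9, 91.5 and 93.1 CPM in the Space libraries. The focal adhesion kinase gene Ptk2 was at 213, 218 and 222 CPM in the Ground and 238, 218 and 217 CPM in the Space libraries. Talin 1, Tln1, was at 192, 159 and 139.7 CPM in the Ground and 147, 160.1 and 189 CPM in the Space libraries, highest in Ground-1 and Space-3. These 2 libraries were highest in 7 of the 28 tested genes and lowest in 6, beside 20.0% and 19.7% of all genes tested. The smallest unadjusted p of the edgeR test was 0.0747, for the adaptor Bcar1, at 54.5 ± 2.18 CPM in Ground and 59.7 ± 1.65 CPM in Space with a log2 fold change of 0.13 (SE 0.063). Bcar1 and Rap1b were the 2 genes of the list whose groups did not overlap, against 3.59% of all genes. In the other direction the smallest p was that of Parva, at -0.19 (SE 0.143).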

How the data were processed

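RNA-seq libraries of GS cells, 3 Space and 3 Ground by title, were analysed from a table of raw counts per gene that the authors deposited. Per the labels and the study's methods, reads were trimmed with cutadapt and mapped with HISAT2 to mm10 with GENCODE M21. The submitters' processing notes list bcl2fastq 2.20, HISAT2 2.2.1, cutadapt 4.1 and HTSeq 2.0.2. Strand setting and handling of shared reads are not given in the sources used here, and the sources differ on kit and read layout. The 10 subunits and all gene lists were chosen with earlier results of these data known.

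Counts were scaled by TMM, filtered with filterByExpr and tested by edgeR 4.0.16 (R 4.3.3) quasi-likelihood F tests, 2-sided, over all 15104 genes that passed, with p-values adjusted by Benjamini-Hochberg and called at 0.05. Intervals of 95% used the fitted standard errors. Levels per kilobase used merged exons of GENCODE M21. The log2 CPM of marker scores and likeness used a prior count of 2, and scores were compared by exact permutation tests. Total counts of 19015985 to 24110916 per library set counting error only. The biological coefficient of variation was 13.9%. Alternatives were RLE and total-count scaling, 2 other filters, DESeq2 1.42.0, limma-voom (limma 3.58.1), removal of mitochondrial genes, a replicate block, leaving out each library, transcript length and another prior count. The code was tested on simulated counts.

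The text names all members, other subunits averaging 1 CPM or more, and in each of the 4 ligand and partner lists the genes past the threshold or otherwise the 3 highest per kilobase and the smallest p in each direction. Cd9, Epcam and Cdh1 are named because their proteins were stained in the study, and the 3 genes most like each member by Pearson r, which are not reported here for Itgb7. Other names were chosen after their values were seen.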

Additional observations from a re-analysis of the deposited data

How the results depend on the processing

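In all 14 alternatives, 6 of which each left out a library, 0 genes of each of the 6 integrin, ligand and partner lists were past an adjusted p of 0.05. Of 140 member log2 fold changes under an alternative, 117 kept the sign and 23 turned, none past the threshold, and the cause was not tested. With total counts in place of TMM, Itga3 was 0.023, Itgb1 0.030, Itgb3 0.0078 and the endothelial marker score 0.0081. With limma-voom Itga3 was 0.0038. Leaving out each library in turn gave -0.878 to 0.0742 for Itga2, -0.28 to 0.28 for Itga3, -0.30 to 0.11 for Itga5, -0.15 to 0.25 for Itga9, -0.22 to 0.0796 for Itgav, -0.0735 to 0.0510 for Itgb1, -0.24 to 0.14 for Itgb3, -0.15 to 0.0417 for Itgb5 and -0.31 to 0.0194 for Itgb7, and 0.007 to 0.09 for Itga6, which kept its sign. The same gave -0.21 to 0.50 for Itgb4, -0.14 to 0.20 for Ltbp3 and -0.0494 to 0.0741 for Ptgfrn, and differences in score of -0.0372 to 0.049999 for germ cell, -0.40 to 0.53 for macrophage and blood, -0.55 to -0.16 for fibroblast, -0.24 to 0.17 for endothelial and -0.0410 to 0.27 for Sertoli and Leydig markers. Per kilobase of the longest transcript, Itga6 was at 35.4, Itgav at 4.56 and Itgb1 at 81.1. With the replicate number as a block, 0 genes were past the threshold and Itga3 was 0.00083 (SE 0.352), and no call changed. Same-numbered libraries deviated in opposite directions for numbers 1 and 3, with correlations of -0.54 and -0.61 over 15104 genes, and together for number 2, at 0.33. The main fit did not pair samples by number, because no label says that a number marks a shared line or culture. Depth limits Itga2 most among the members, with 4 to 16 counts a library.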

Other observations

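Tetraspanins and other proteins lie beside integrins in the membrane. Of 14 such genes 13 were tested, 0 passed the edgeR test (0 at an unadjusted p under 0.05) and the median log2 fold change, Space over Ground, was -0.05. Estimates were lower in Space for 12 and higher for 1, beside 7743 lower and 7361 higher over all genes tested. Bsg (basigin) had the highest level per kilobase at 148, followed by Epcam at 108 and Slc3a2, the CD98 heavy chain, at 69.2. Cd9, a tetraspanin used as a marker of spermatogonial stem cells, was at 112 ± 13.7 CPM in Ground and 109.6 ± 3.89 CPM in Space (SD, n = 3 each). Epcam, an epithelial adhesion molecule found on spermatogonia, was at 265, 252 and 206 CPM in the Ground and 205, 239 and 261 CPM in the Space libraries, so Ground-1 and Space-3 were highest, as for Itga3. Cd151, the tetraspanin that binds laminin-binding integrins and is named here after its values were seen, was at 122, 89.9 and 70.5 CPM in the Ground and 71.2, 83.1 and 121 CPM in the Space libraries. Of the 13 tested, Ground-1 and Space-3 held the 2 highest values in 4 and the 2 lowest in 3, beside 20.0% and 19.7% of all genes tested. The smallest p for a lower estimate belonged to Cd47 at -0.14 (SE 0.147) and for a higher one to Ptgfrn at 0.02 (SE 0.076).

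The genes whose log2 CPM was most like that of a member other than Itgb7 over the 6 libraries are given as a description, since 6 points that fall into a few pairs of similar libraries give high values for many genes. The number of tested genes with a Pearson r over 0.95 was 544 for Itga5, 533 for Itga3 and 457 for Itgb3 but 91 for Itgb1 and 32 for Itga6. Itga3 was most like Arl4d, Notch1 and Tanc1, Itga5 most like 0610038B21Rik, Lrpap1 and Ephb4, Itgb3 most like Abi3, B4galt4 and Plaur, and Itgav most like Cst3, B3galt1 and A530088E08Rik. Itga6, which ranged only 1.14-fold, was most like Tdrd1, a germ cell gene of the piRNA pathway, at r = 0.990, then Tom1 and Qrsl1, at 0.984 each. Itgb1 was most like Glud1, Igbp1b and Pcnx4, and Itgb5 most like Eef1b2, Slc25a3 and Prkar1a. Itga9 was most like Llph, Mrps9 and Axin2, and Itga2 most like Sgip1, Tenm2 and Fam169b.

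Of the other cell types, 7 of 10 endothelial markers were tested and 4 were under 1 CPM, and of 12 Sertoli and Leydig markers 6 were tested and 3 had no counts. The difference in score, Space minus Ground, was 0.006 for germ cell, 0.08 for macrophage and blood, -0.03 for endothelial and 0.10 for Sertoli and Leydig markers (exact permutation p = 0.7, 0.8, 0.9 and 0.6, adjusted p = 0.9 each over 6 values).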
